A study of Mus musculus with 10 samples.

Results

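Transcripts of 41 nuclear genes for respiratory complexes III, IV and V were compared between atrial and ventricular cardiomyocytes, the muscle cells that contract the heart's receiving and pumping chambers. The genes were listed by name, with earlier results of these data known, so their counts and medians are descriptions. Of these, 9 encode subunits of complex III and 1 encodes somatic cytochrome c. Another 15 encode subunits or close relatives of subunits of complex IV, and 16 encode subunits or the inhibitor of complex V. All 41 were found among the 25239 gene symbols measured, 40 under the listed symbol and Atp5f1 under its current symbol Atp5pb, a synonym given by RefSeq. The study sequenced total RNA from atrial cardiomyocytes (aCM) and ventricular cardiomyocytes (vCM) of wild-type (WT) mice, with 5 libraries from each, to profile the 2 cell types against each other. The labels state neither strain, age nor sex. They also do not say that the libraries of a chamber represent different animals, so each p-value here reflects spread between libraries that may be technical. Values are normalized reads, the read count of a gene divided by a size factor for its library.

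Complex III, the cytochrome bc1 complex, takes electrons from ubiquinol and hands them to cytochrome c, a small soluble protein between the mitochondrial membranes. Complex IV, cytochrome c oxidase, passes these electrons to oxygen, and both complexes pump protons that complex V, the ATP synthase, uses to make ATP. Heart muscle depends on this chain for most of its ATP, and several complex IV subunits have a form made mainly in heart and skeletal muscle beside a form made in most tissues.

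Recovered reads per library numbered 3893406 to 12575523 in aCM and 1790402 to 12842635 in vCM. The libraries fell into 2 sets that the labels do not name: Rn45s, the ribosomal precursor, made up 23.1% to 29.8% of the reads of replicates 3 to 5, whichever the chamber, and 0.215% to 0.480% of those of replicates 1 and 2. Both chambers were present in both sets, so differences within each set are given beside the pooled ones. Of 8 cardiomyocyte markers, 1 was lower in aCM (Mybpc3, a thick filament protein, log2 difference -1.22 ± 0.27, limma adjusted p = 0.010) and none was higher. With the replicate number as a block 4 of the 8 were lower, with Tnnt2 (-0.48, block adjusted p = 0.000906), Actn2 (-0.34, 0.0166) and Actc1 (-0.28, 0.0368) added, and the median log2 difference of the 8 was -0.21. Of all tested genes, 6.56% were called lower without the block and 16.0% with it. The summed level of the 8 markers ran from 333051 to 821848 normalized reads in aCM libraries and from 355525 to 697683 in vCM libraries. Ttn, 1 of the 8, weighs heavily in that sum, with 24204 to 373180 in aCM and 22745 to 279315 in vCM. All 8 atrial markers were higher and all 6 ventricular markers lower in aCM, as the labels have it.

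Every one of the 41 genes had a lower mean level in aCM than in vCM, and 22 passed the test as lower while none passed as higher. Calls rest on limma's moderated test, two-sided, of log2(normalized reads + 1) in the 12422 genes averaging at least 10 normalized reads, at a Benjamini-Hochberg adjusted p under 0.05. In this comparison 6.56% of all tested genes were called lower and 8.12% higher in aCM. The median log2 difference, aCM minus vCM, was -0.68 over the 41 genes and -0.01 over all tested genes. Mean levels in aCM ran from 42.1% of the vCM mean, for Cyc1, to 89.1%, for Cox6a2, with a median of 62.3%. In 21 of the 41 genes every aCM library lay below every vCM library, an arrangement found in 6.55% of tested genes, and the reverse arrangement, found in 7.84% of them, occurred in none of the 41. In bulk RNA, fewer cells of a type and less RNA per cell cannot be told apart.

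The count depended on how the library sets were treated. With the replicate number as a block, 38 of the 41 were lower in aCM, against 16.0% of all tested genes, and none was higher, against 16.3%. Those that did not pass were Cox4i2, Cox6a2 and Atp5l. These 38 genes were also lower in aCM in all 5 same-numbered pairs, as were 20.7% of tested genes, and the other 3 were lower in 4 of 5 pairs. With library set as a term 37 passed as lower (15.8% of tested genes) and none as higher (16.0%). Within replicates 3 to 5 all 41 passed as lower (26.6% of tested genes) and none as higher (26.2%). Within replicates 1 and 2, with 2 libraries a chamber, 10 passed as lower (2.04%) and none as higher (3.09%), and 39 had a negative difference. When libraries were scaled to equal totals, which counts the ribosomal precursor in the total, 14 passed as lower (4.32%) and none as higher (8.16%). That scaling lost 10 calls and added those of Cox5a and Cox7a2. By edgeR on the recovered reads 21 passed as lower (7.37%) and none as higher (8.83%).

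**Figure D1:**
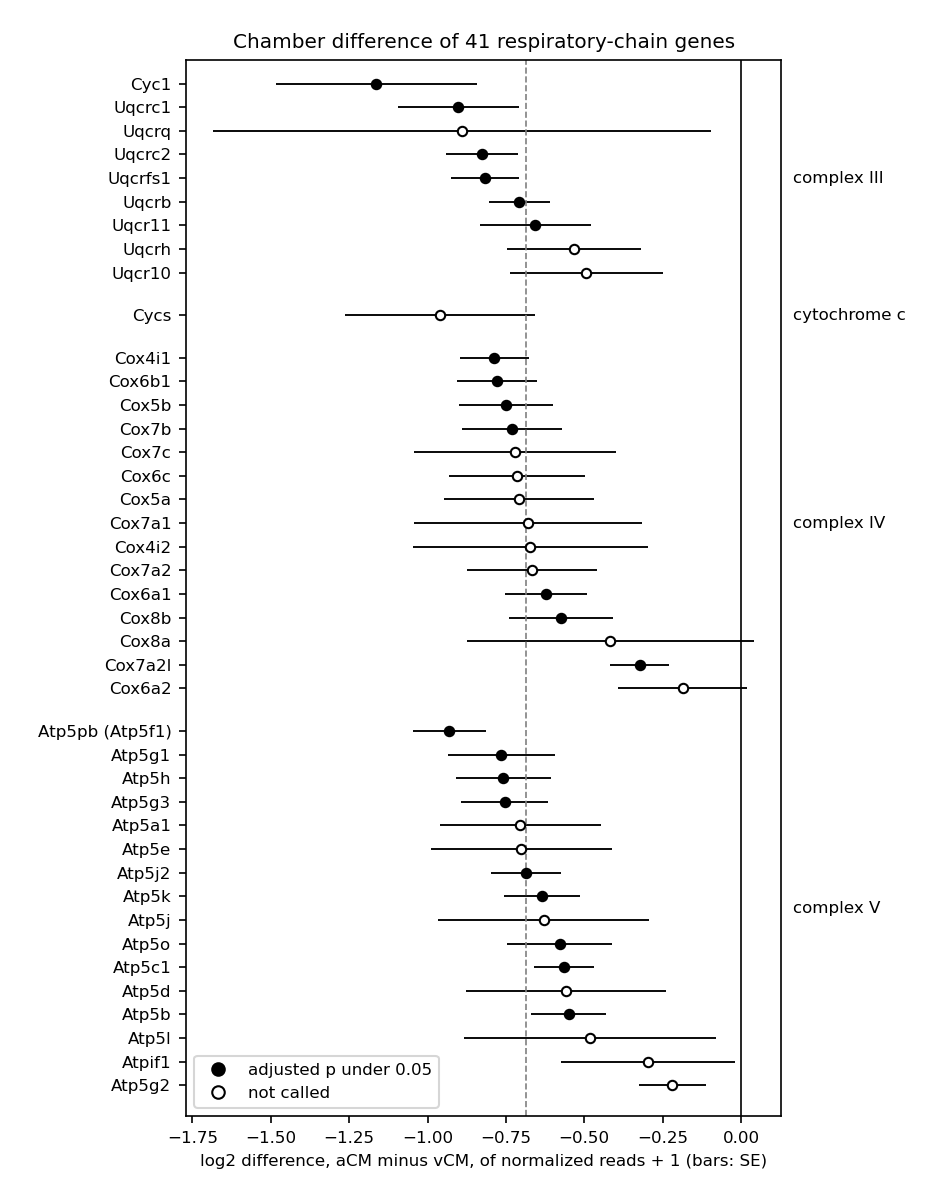
Log2 difference (aCM minus vCM) of normalized reads + 1 for the 41 genes, grouped by complex and ordered by size within each; bars are SE from limma over 5 aCM and 5 vCM libraries, filled points have an adjusted p under 0.05, and the dashed line is the median of the 41 genes. All points lie below 0, from -1.16 for Cyc1 to -0.19 for Cox6a2.

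Complex III had the largest median difference of the 3 complexes, -0.82 over its 9 genes, and 6 of the 9 were lower in aCM (all 9 with the replicate block). The complexes were not tested against each other. Cyc1, which encodes cytochrome c1, the subunit that passes electrons to cytochrome c, lies at chr15:76343523-76346260 (GRCm38). Its level was 2462, 2689, 1485, 1572 and 1506 normalized reads in aCM replicates 1 to 5, against 6940, 7107, 3417, 2829 and 2758 in vCM replicates 1 to 5. The highest aCM library stood below the lowest vCM library, by a small margin, while within either library set the aCM values were well below the vCM values. The log2 difference was -1.16 ± 0.32 (SE, limma adjusted p = 0.0325), with -1.45 in replicates 1 and 2 and -0.97 in replicates 3 to 5. Cyc1 lost the call when any of aCM replicates 3, 4 or 5 or vCM replicates 1 or 2 was left out (adjusted p = 0.0822, 0.0802, 0.0819, 0.0613 and 0.0671, in that order) and under equal totals (adjusted p = 0.116). With the replicate block its adjusted p was 0.000114.

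The core proteins of complex III and its iron-sulfur subunit had differences of similar size in both library sets. Uqcrc1 and Uqcrc2, the core proteins, averaged 53.5% and 56.5% of their vCM means, with log2 differences of -0.90 ± 0.19 and -0.83 ± 0.11 (limma adjusted p = 0.00905 and 0.000699). Uqcrfs1, the Rieske iron-sulfur protein, averaged 1540 ± 126 normalized reads in aCM and 2714 ± 266 in vCM (SD, n = 5 each), a log2 difference of -0.82 ± 0.11 (adjusted p = 0.000522). Uqcrc1, Uqcrc2 and Uqcrfs1 each had all aCM libraries below all vCM libraries. Among the small accessory subunits, Uqcrb (-0.71 ± 0.10) and Uqcr11 (-0.66 ± 0.18) were lower in aCM, with limma adjusted p = 0.000676 and 0.0295. Uqcr11 lost its call when any of aCM replicates 2 or 5 or vCM replicates 3, 4 or 5 was left out, with adjusted p between 0.0552 and 0.0777, and under TMM scaling (0.0738).

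The remaining 3 accessory subunits of complex III, Uqcrq, Uqcrh and Uqcr10, had differences of -0.89, -0.53 and -0.49 on the log2 scale and did not pass the test without the block. Uqcrh, the hinge protein, had a limma adjusted p of 0.135, and 0.000565 with the block. Uqcr10 stood at 320, 367, 200, 211 and 203 normalized reads in aCM replicates 1 to 5 and at 484, 497, 289, 293 and 274 in vCM replicates 1 to 5. Levels in both chambers were higher in replicates 1 and 2, so the chambers overlapped although each aCM library was below its same-numbered vCM library; the adjusted p was 0.234, and 0.000965 with the block. Uqcrq, a ubiquinone-binding protein of the complex, showed the opposite division, with 89.7, 105, 674, 593 and 554 normalized reads in aCM and 145, 227, 1117, 1193 and 1052 in vCM. The library sets differed more for Uqcrq (log2 difference 2.62, replicates 3 to 5 minus replicates 1 and 2) than for any other of the 41 genes, while its chamber difference was nearly equal within replicates 1 and 2 (-0.90) and within replicates 3 to 5 (-0.89). Its adjusted p was 0.574 and, with the block, 0.000120.

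**Figure D2:**
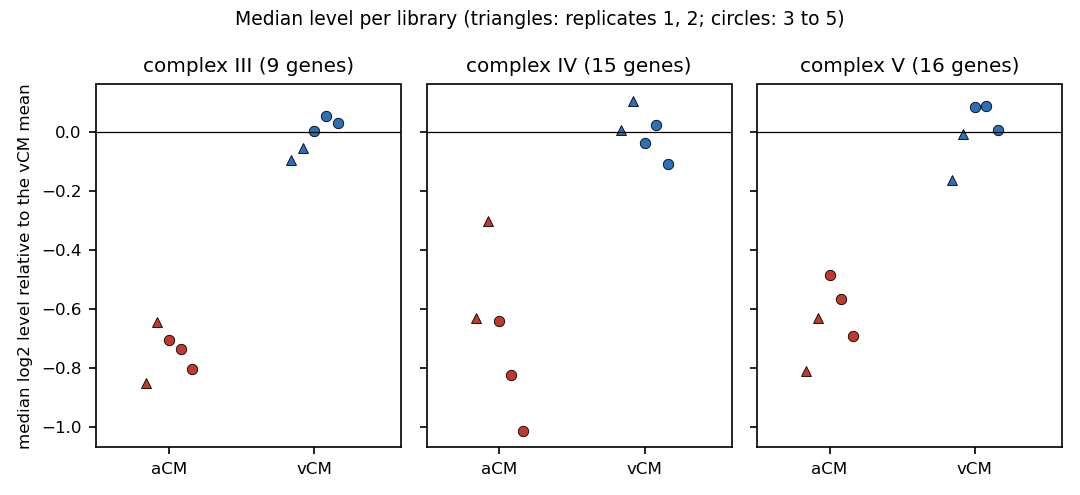
Median, over the genes of each complex, of the log2 level in a library relative to the gene's mean over the vCM libraries; each point is 1 library, with aCM left and vCM right, triangles for replicates 1 and 2 and circles for replicates 3 to 5. The aCM medians lie between -0.85 and -0.65 for complex III, -1.01 and -0.30 for complex IV and -0.81 and -0.49 for complex V, and the vCM medians between -0.16 and 0.11 in all 3.

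Cycs encodes the somatic form of cytochrome c, which shuttles electrons between complexes III and IV. It had 2107, 3161, 1407, 1275 and 1032 normalized reads in aCM replicates 1 to 5 and 3588, 4945, 2482, 2922 and 2676 in vCM replicates 1 to 5. The aCM value was lower in all 5 pairs, but aCM replicate 2 exceeded 3 of the vCM libraries. The log2 difference of -0.96 ± 0.30 did not pass without the block (limma adjusted p = 0.0584) and passed with it (0.000363), and also when aCM replicate 2 was left out (-1.19, 0.0108). Cyct, the testis form, averaged 3.16 normalized reads in aCM and 1.08 in vCM and was below the filter for testing. Reads of Cycs may be shared: 28.2% of the 50-base windows of its transcript occur exactly in transcripts of 43 other annotated genes.

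Complex IV had 7 of 15 genes lower in aCM, with a median log2 difference of -0.68 (13 of 15 with the replicate block). Cox4i1, the form of subunit 4 made in most tissues, showed the largest difference in the complex. It lies at chr8:120668222-120674207 and had 1739, 2018, 2281, 2059 and 1883 normalized reads in aCM replicates 1 to 5 against 3059, 3410, 3745, 3748 and 3239 in vCM. No aCM library came near the lowest vCM library, and either library set gave -0.79. Pooled it was -0.79 ± 0.11 (limma adjusted p = 0.000758). Cox6b1, which links the monomers of the dimer, Cox5b, the zinc-binding subunit, and Cox7b were also lower, with log2 differences of -0.78 ± 0.13, -0.75 ± 0.15 and -0.73 ± 0.16 (adjusted p = 0.00201, 0.00639 and 0.00973). Cox5a, Cox6c and Cox7c had differences of the same size, -0.71, -0.71 and -0.72, with larger errors (adjusted p = 0.0775, 0.0502 and 0.184), and passed with the block (adjusted p = 0.000112, 0.00100 and 0.00113). Without vCM replicate 1 Cox5a passed (0.0248), as did Cox6c without aCM replicate 2 (0.010). Cox5a also passed under equal totals (limma adjusted p = 0.0342).

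Cox7a2l encodes a relative of subunit 7a that binds complexes III and IV together in supercomplexes. It stood at 462, 481, 464, 479 and 427 normalized reads in aCM replicates 1 to 5 and at 644, 602, 565, 575 and 516 in vCM replicates 1 to 5. The chambers did not overlap and the spread within each was small, yet the difference, -0.32 ± 0.09, was the smallest among the 22 genes that passed (limma adjusted p = 0.0432). The call for Cox7a2l was lost when any library except vCM replicate 5 was left out (adjusted p from 0.0511 to 0.115), and under equal totals, TMM scaling, edgeR and no filter on low values. With the block the adjusted p was 0.00634.

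Subunits 6a, 7a and 8 of complex IV exist in a heart and muscle form, encoded by Cox6a2, Cox7a1 and Cox8b, and in a form made in most tissues, encoded by Cox6a1, Cox7a2 and Cox8a. The isoform comparison turns on these genes, and the promoters of 5 of them follow; Cox6a2 had no entry. Each is the 250 bases before the RefSeq start of the gene, on the strand of the gene, and the GENCODE gene begins at most 27 bases inside the window. Capitals mark matches to the NRF1 motif, searched as GCGCA, then any base, then GCGC. NRF1 is a transcription factor known for activating many nuclear respiratory genes.
Cox6a1 promoter, GRCm38.p6 chr5:115348959-115349208, minus strand: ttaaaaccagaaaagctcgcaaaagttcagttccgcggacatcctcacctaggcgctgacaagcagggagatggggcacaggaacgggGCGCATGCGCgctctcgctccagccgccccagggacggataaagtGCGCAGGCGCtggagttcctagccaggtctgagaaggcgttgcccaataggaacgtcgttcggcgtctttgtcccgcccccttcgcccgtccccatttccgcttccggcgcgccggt
Cox7a1 promoter, GRCm38.p6 chr7:30183921-30184170, plus strand: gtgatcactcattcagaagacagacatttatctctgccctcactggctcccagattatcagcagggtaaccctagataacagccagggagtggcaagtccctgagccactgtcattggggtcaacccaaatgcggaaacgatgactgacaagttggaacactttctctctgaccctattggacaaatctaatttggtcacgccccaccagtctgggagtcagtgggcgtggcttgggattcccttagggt
Cox7a2 promoter, GRCm38.p6 chr9:79759854-79760103, minus strand: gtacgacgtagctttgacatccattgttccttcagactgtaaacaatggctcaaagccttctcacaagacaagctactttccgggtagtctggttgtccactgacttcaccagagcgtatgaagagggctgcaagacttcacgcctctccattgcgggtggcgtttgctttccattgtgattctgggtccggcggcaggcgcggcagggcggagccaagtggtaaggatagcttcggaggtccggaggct
Cox8a promoter, GRCm38.p6 chr19:7217617-7217866, minus strand: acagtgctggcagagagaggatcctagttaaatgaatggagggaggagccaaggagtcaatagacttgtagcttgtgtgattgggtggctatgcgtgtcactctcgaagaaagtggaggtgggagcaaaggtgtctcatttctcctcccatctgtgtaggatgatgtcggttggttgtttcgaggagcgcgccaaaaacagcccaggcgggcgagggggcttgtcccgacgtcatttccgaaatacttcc
Cox8b promoter, GRCm38.p6 chr7:140900447-140900696, minus strand: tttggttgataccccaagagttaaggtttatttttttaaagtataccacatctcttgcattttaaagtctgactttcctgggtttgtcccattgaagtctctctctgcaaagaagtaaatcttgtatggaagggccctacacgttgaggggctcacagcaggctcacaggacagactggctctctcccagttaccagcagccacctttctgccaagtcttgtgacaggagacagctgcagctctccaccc

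The matches in the Cox6a1 window begin 162 and 117 bases before the start, and the other 4 windows hold no match to these letters. Of the 41 genes, 32 had an entry among the RefSeq windows, with 35 windows between them. NRF1 letters were in 6 of the 35 windows (17.1%), those of Atp5c1, Atp5g2, Atp5h, Atp5k, Atpif1 and Cox6a1, and in 3.74% of all 32851 windows. A loose pattern for MEF2, CTA and TAG with any 4 bases between them, was in 1 of 35 (Cox5b, as CTACTTTTAG) and in 3.20% of all windows. The ETS letters ACCGGAAG were in 1 of 35 (Atp5e) and 1.72% of all, and the YY1 letters AAGATGGCG in 1 of 35 (Atp5j) and 0.606% of all. Both strands were searched, and a match is a description of letters and not a binding site. The windows follow RefSeq starts, and some lie inside the GENCODE gene. The Atp5g2 window and the Atp5j window with the match lie wholly inside it. Of the matching Atp5c1, Atp5k and Cox5b windows, the last 78, 49 and 38 bases lie inside it. Their matches begin 17, 50 and 36 bases before the RefSeq start, in that order.

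Among the subunit 6a genes, the form made in most tissues was lower in aCM and the muscle form did not pass the test. Cox6a1 (chr5:115345642-115348981) had 239, 272, 232, 245 and 241 normalized reads in aCM replicates 1 to 5 and 287, 366, 442, 385 and 432 in vCM replicates 1 to 5. Every aCM library was below every vCM library, most clearly in replicates 3 to 5. The log2 difference was -0.62 ± 0.13 (limma adjusted p = 0.00802), with -0.35 in replicates 1 and 2 and -0.81 in replicates 3 to 5. Cox6a2 (chr7:128205435-128206387) had 5462, 4815, 3302, 3050 and 3105 normalized reads in aCM and 4425, 6059, 4124, 3548 and 3994 in vCM. The chambers overlapped, aCM replicate 1 was above vCM replicate 1, and the other 4 aCM libraries were below their vCM partners. The difference of -0.19 ± 0.21 was the smallest of the 41 genes (adjusted p = 0.675, and 0.203 with the block), and the sets gave -0.01 (replicates 1 and 2) and -0.30 (replicates 3 to 5), passing in replicates 3 to 5 (adjusted p = 0.000167). Per kilobase of exon the muscle form was the more abundant in both chambers, at 5804 normalized reads in aCM and 6515 in vCM for Cox6a2, against 430 in aCM and 670 in vCM for Cox6a1.

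The subunit 7a genes had chamber differences of nearly equal size. Cox7a1 (chr7:30184144-30186078) had 346, 440, 233, 177 and 149 normalized reads in aCM replicates 1 to 5 and 664, 619, 257, 347 and 271 in vCM. Cox7a2 (chr9:79755361-79759878) had 324, 407, 536, 568 and 511 in aCM and 491, 653, 833, 909 and 853 in vCM. For both genes each aCM library was below its same-numbered vCM library while the chambers overlapped, because replicates 1 and 2 were the higher libraries for Cox7a1 and the lower ones for Cox7a2. Log2 differences were -0.68 ± 0.36 and -0.67 ± 0.21 (limma adjusted p = 0.282 and 0.0547), and both passed with the block (adjusted p = 0.00446 and 0.000113). Without vCM replicate 1, Cox7a2 passed as well (-0.81, adjusted p = 0.0139). Cox7a2 also passed under equal totals (limma adjusted p = 0.0285) and by edgeR (edgeR adjusted p = 0.0374). Per kilobase of exon Cox7a1 stood at 503 normalized reads in aCM and 807 in vCM, and Cox7a2 at 712 in aCM and 1135 in vCM.

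For subunit 8 the muscle form was lower in aCM. Cox8b (chr7:140898945-140900446) had 254, 282, 197, 175 and 152 normalized reads in aCM replicates 1 to 5 and 301, 331, 302, 318 and 288 in vCM replicates 1 to 5. All aCM libraries lay below all vCM libraries, and the gap was wider in replicates 3 to 5 (-0.80) than in replicates 1 and 2 (-0.24), a contrast whose own test did not pass (limma interaction adjusted p = 0.108). The pooled log2 difference of -0.57 ± 0.17 passed (adjusted p = 0.0414), but not when any of aCM replicates 3 to 5 or any 1 vCM library was left out (adjusted p from 0.0592 to 0.106), nor under equal totals, edgeR or no filter on low values. Cox8a (chr19:7215153-7217616) had 1301, 1745, 684, 609 and 522 in aCM and 2495, 2084, 788, 748 and 683 in vCM, lower in aCM in each pair. In both chambers its level was lower in replicates 3 to 5 than in replicates 1 and 2, by more than in any other of the 41 genes (log2 -1.47). Its difference was -0.42 ± 0.46 (adjusted p = 0.674, and 0.0198 with the block). Per kilobase of exon Cox8b stood at 589 normalized reads in aCM and 856 in vCM, and Cox8a at 1767 in aCM and 2472 in vCM.

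Cox4i2, the second form of subunit 4, is known from lung and as an oxygen-responsive gene. It was close to the floor here, with 11.03, 11.5, 9.09, 6.49 and 6.44 normalized reads in aCM and 6.92, 12.2, 14.9, 28.7 and 16.7 in vCM. These levels rest on 8, 8, 16, 11 and 10 reads in aCM replicates 1 to 5 and 2, 5, 24, 43 and 27 reads in vCM, where replicate 1 is under the limit of 3 reads that a count of 0 allows. The aCM libraries of replicates 3 to 5 were below all their vCM counterparts, whereas those of replicates 1 and 2 were not set apart from theirs. The log2 difference of -0.67 ± 0.37 did not pass (limma adjusted p = 0.304, and 0.240 with the block). Per kilobase of exon Cox4i2 stood at 11.3 normalized reads in aCM and 20.2 in vCM, and Cox4i1 at 2609 in aCM and 4497 in vCM. Cox4i2 is also known as a gene of pericytes, the cells that wrap capillaries. Of 7 pericyte markers 5 were tested and 1 was lower in aCM (Cspg4, -1.65), or 3 with the block, which added Rgs5 (-0.99) and Notch3 (-1.49). Pdgfrb (-0.19) and Kcnj8 (1.31, with 58.5 normalized reads in aCM and 28.9 in vCM) did not pass with or without it. The summed level of the list ran from 546 to 904 normalized reads in aCM and from 702 to 2241 in vCM. Higd1b and Vtn, the markers too low to test, averaged 0.236 and 0.958 normalized reads in aCM and 3.71 and 3.35 in vCM. The part of such cells in the level of Cox4i2 was not tested.

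**Figure D3:**
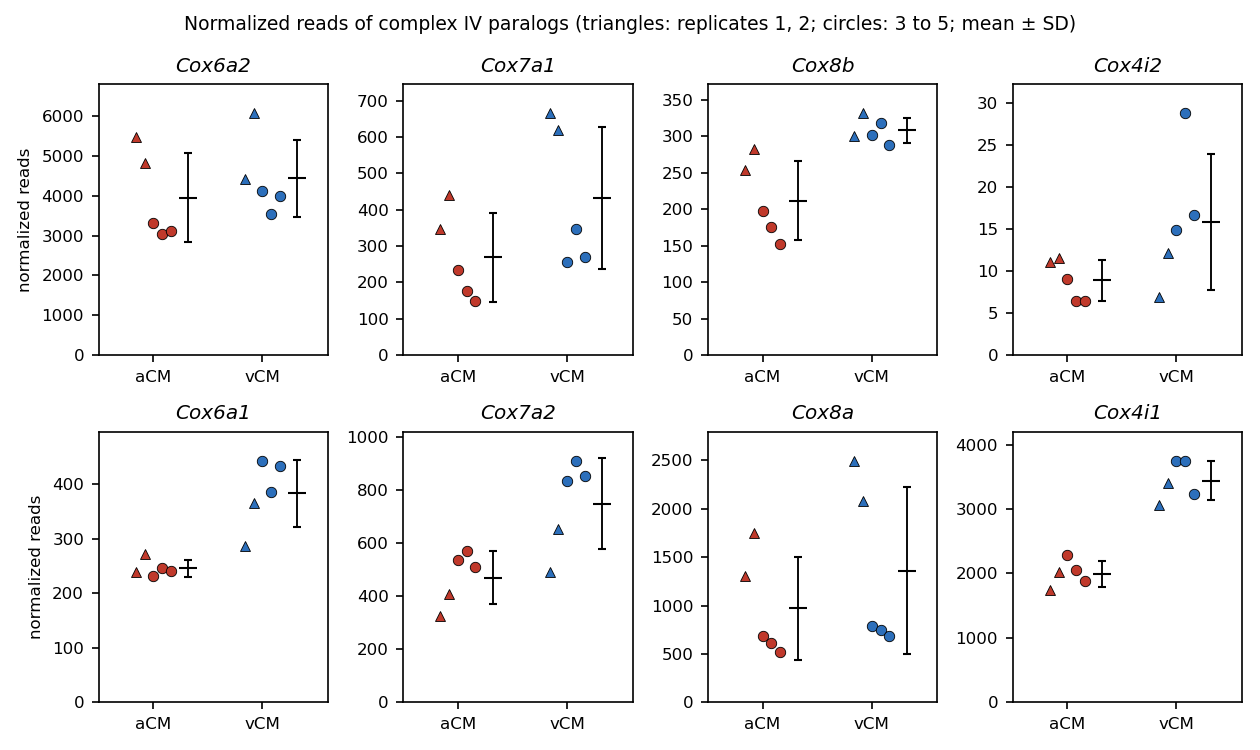
Normalized reads of the 8 paired complex IV genes in each library, with the heart, muscle or second form above and the form made in most tissues below; aCM is left and vCM right, triangles are replicates 1 and 2, circles replicates 3 to 5, and bars mean ± SD (n = 5 libraries each). Cox4i1, Cox6a1 and Cox8b have no overlap between chambers, and Cox7a1, Cox7a2 and Cox8a split by library set.

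A ratio of paired genes within a library cancels the scaling of that library. The Cox6a2 to Cox6a1 ratio was 22.9, 17.7, 14.2, 12.4 and 12.9 in aCM replicates 1 to 5 and 15.4, 16.6, 9.32, 9.22 and 9.24 in vCM replicates 1 to 5. Each aCM library had the higher ratio in its pair, while replicates 1 and 2 were above replicates 3 to 5 in both chambers. On the log2 scale the ratio averaged 3.96 ± 0.37 in aCM and 3.52 ± 0.43 in vCM (SD, n = 5 each), a difference of 0.44 that did not pass an exact two-sided permutation test over 252 labelings (p = 0.127, adjusted over 4 ratios 0.508). Permuting labels within library sets, a choice made after the data were seen, gave exact p = 0.0167, the smallest that its 120 labelings allow, and 0.0667 adjusted.

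The other 3 ratios did not pass either. Cox7a1 over Cox7a2 averaged -0.89 ± 0.93 in aCM and -0.87 ± 0.99 in vCM on the log2 scale (difference -0.01, exact permutation p = 0.992), and every library of replicates 1 and 2 was above every library of replicates 3 to 5. Cox8b over Cox8a averaged -2.07 ± 0.40 in aCM and -1.91 ± 0.87 in vCM (difference -0.16, exact permutation p = 0.714), with 0.36 in replicates 1 and 2 and -0.50 in replicates 3 to 5. Cox4i2 over Cox4i1 averaged -7.68 ± 0.41 in aCM and -7.80 ± 0.60 in vCM (difference 0.11, exact permutation p = 0.738), with 1.05 in replicates 1 and 2 and -0.51 in replicates 3 to 5. Both these ratios thus had chamber differences of opposite sign in the 2 library sets. A p that misses the threshold does not show that the ratios were alike.

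Complex V had 9 of 16 genes lower in aCM, with a median log2 difference of -0.63 (15 of 16 with the replicate block). In the catalytic F1 head 2 of 5 genes passed as lower (5 with the block). Atp5a1, the alpha subunit, had 19929, 23442, 12651, 12717 and 12822 normalized reads in aCM replicates 1 to 5 and 35419, 36697, 21694, 19364 and 20269 in vCM. Atp5b, the beta subunit that carries the catalytic sites, had 15898, 19884, 16463, 16684 and 16248 in aCM and 27766, 27589, 24571, 22102 and 22768 in vCM. Both were lower in aCM in every pair, and the aCM libraries of Atp5b all lay below the vCM libraries, whereas those of Atp5a1 overlapped them through the higher replicates 1 and 2. Atp5b passed (-0.55 ± 0.12, limma adjusted p = 0.00986) and Atp5a1 did not (-0.70 ± 0.26, 0.100; 8.45e-05 with the block, and 0.0498 without aCM replicate 2). Atp5c1, the gamma subunit of the rotor, was lower (-0.56 ± 0.09, adjusted p = 0.00232). Atp5d and Atp5e, also rotor subunits, had differences of -0.56 and -0.70 (adjusted p = 0.318 and 0.148) and passed with the block (adjusted p = 0.00141 and 0.000725), as Atp5e did without vCM replicate 1 (0.0316). Atp5b, Atp5c1 and Cox5b lost the call under equal totals, as did Uqcrc1, Cox7b, Atp5h and Atp5k.

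Atp5pb, listed here under its older name Atp5f1, encodes subunit b of the peripheral stalk, which holds the head still while the rotor turns. It lies at chr3:105942698-105960099 and showed the largest difference in complex V. Levels were 2622, 3479, 3488, 3401 and 3399 normalized reads in aCM replicates 1 to 5 and 5612, 5869, 6545, 6379 and 6721 in vCM replicates 1 to 5. The chambers were far apart, and the difference was the same size in both library sets, -0.93 in each, with a pooled value of -0.93 ± 0.12 (limma adjusted p = 0.000352). Of the other stalk genes, Atp5h (subunit d, -0.76 ± 0.15) and Atp5o (the oligomycin sensitivity protein, -0.58 ± 0.17) were lower in aCM, with limma adjusted p = 0.00604 and 0.040. Atp5j (subunit F6, -0.63 ± 0.34) did not pass (adjusted p = 0.281, and 0.000565 with the block). Atp5o had no call when any library except aCM replicate 3 or vCM replicate 1 was left out (adjusted p from 0.0504 to 0.102), nor under TMM scaling or no filter on low values.

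In the membrane part, Atp5j2 (subunit f, -0.68 ± 0.11) and Atp5k (subunit e, -0.64 ± 0.12) were lower in aCM (limma adjusted p = 0.00196 and 0.00459). Atp5l, subunit g, which with subunit e joins the synthase into dimers, had 199, 245, 379, 328 and 375 normalized reads in aCM and 232, 180, 626, 668 and 688 in vCM. In replicates 3 to 5 the aCM libraries were far below the vCM libraries (-0.87), whereas replicate 2 was higher in aCM and replicates 1 and 2 together gave 0.11. Atp5l did not pass pooled (-0.48 ± 0.40, adjusted p = 0.539) or with the block (0.127). Atpif1, the inhibitor that stops the synthase from running backwards and burning ATP, stood at 2949, 3335, 1929, 1865 and 1588 normalized reads in aCM and 3941, 4158, 2022, 2174 and 2186 in vCM. The aCM value of Atpif1 was lower in all 5 pairs by a small amount, with a difference of -0.30 ± 0.28 (adjusted p = 0.596, and 0.0156 with the block).

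The rotating c-ring of complex V is built from 1 mature protein that Atp5g1, Atp5g2 and Atp5g3 all encode, with different targeting peptides. Atp5g1 (chr11:96068852-96075670) had 208, 259, 250, 221 and 174 normalized reads in aCM replicates 1 to 5 and 266, 419, 447, 438 and 340 in vCM. Atp5g3 (chr2:73908447-73911326) had 1298, 1542, 1379, 1488 and 1406 in aCM and 1758, 2281, 2943, 2645 and 2530 in vCM. For both genes all aCM libraries lay below all vCM libraries, with log2 differences of -0.77 ± 0.17 and -0.75 ± 0.14 (limma adjusted p = 0.0113 and 0.00397). Atp5g2 (chr15:102662864-102672352) had 599, 698, 567, 566 and 543 normalized reads in aCM and 637, 790, 665, 668 and 699 in vCM. Its chambers overlapped through aCM replicate 2, and the difference of -0.22 ± 0.11, the smallest in complex V, did not pass (adjusted p = 0.223, and 0.0349 with the block).

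Atp5g2 thus made up a larger share of the summed c-ring reads in aCM. The share was 28.4%, 27.9%, 25.8%, 24.9% and 25.6% in aCM replicates 1 to 5 and 23.9%, 22.6%, 16.4%, 17.8% and 19.6% in vCM replicates 1 to 5. The chambers did not overlap, and the mean share was 26.5% ± 1.56 in aCM and 20.1% ± 3.17 in vCM (SD, n = 5 each). The difference of 6.47 percentage points had an exact two-sided permutation p = 0.00794, the smallest that 252 labelings allow, and 0.0238 adjusted over the 3 shares, and the sets gave 4.91 points (replicates 1 and 2) and 7.50 points (replicates 3 to 5). Paired by replicate number, the Atp5g2 share was higher in aCM in 5 of 5 pairs, with an exact two-sided sign-flip permutation p = 0.0625, which does not pass and is the smallest that 32 sign flips allow. The share of Atp5g3 averaged 63.6% ± 2.13 in aCM and 69.1% ± 3.18 in vCM, lower in all 5 pairs, with an exact permutation p = 0.0397 and 0.0595 adjusted. Within library sets, or without vCM replicate 1 or vCM replicate 2, the Atp5g3 share passed (adjusted exact p = 0.0250, 0.0357 and 0.0238). Atp5g1 held 9.91% ± 1.15 in aCM and 10.9% ± 1.07 in vCM (exact permutation p = 0.246). The annotated transcripts of Atp5g1 differ widely in length, so no order of abundance among the 3 genes is given.

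The Atp5g3 promoter is shown because it holds the only match among the 35 windows to the ERR element TCAAGGTCA, in capitals and read on the opposite strand, 52 bases before the start; 0.387% of all windows hold these letters. ERR proteins are nuclear receptors known for their part in the control of energy metabolism.
Atp5g3 promoter, GRCm38.p6 chr2:73911327-73911576, minus strand: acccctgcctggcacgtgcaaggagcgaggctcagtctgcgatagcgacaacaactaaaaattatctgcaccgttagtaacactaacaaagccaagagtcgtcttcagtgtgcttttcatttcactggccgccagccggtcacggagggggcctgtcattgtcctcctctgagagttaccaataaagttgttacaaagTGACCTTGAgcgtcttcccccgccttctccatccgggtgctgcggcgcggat

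**Figure D4:**
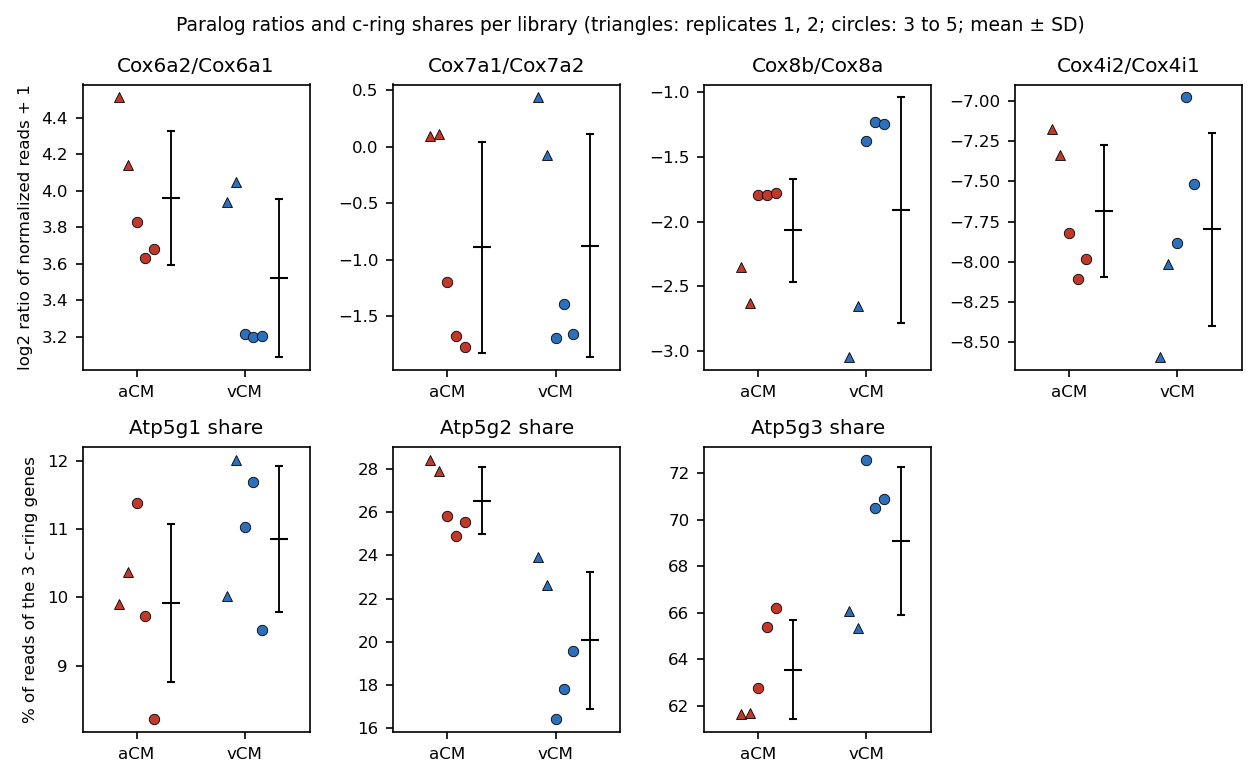
Log2 ratios of the 4 paired complex IV genes (upper panels) and percent of summed c-ring reads from Atp5g1, Atp5g2 and Atp5g3 (lower panels) in each library; aCM is left and vCM right, triangles are replicates 1 and 2, circles replicates 3 to 5, and bars mean ± SD (n = 5 each). The Atp5g2 share is 24.9% to 28.4% in aCM and 16.4% to 23.9% in vCM, with no overlap, and the axes do not start at 0.

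Levels also differed between the library sets. Between replicates 3 to 5 and replicates 1 and 2, 20 of the 41 genes stood higher and 21 lower, with log2 differences from -1.47 for Cox8a to 2.62 for Uqcrq, and in 14 genes this difference was larger than that between chambers. The chamber difference itself differed between the sets in 1 of the 41 genes, Atp5l (interaction adjusted p = 0.0177, limma), against 5.21% of all tested genes. Cox4i2, with a positive difference in replicates 1 and 2 (0.26) and -1.30 in replicates 3 to 5, had an interaction adjusted p of 0.165. Across the 41 genes the differences of the 2 sets had a Pearson r of 0.159, a description over genes that share the same libraries.

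**Figure D5:**
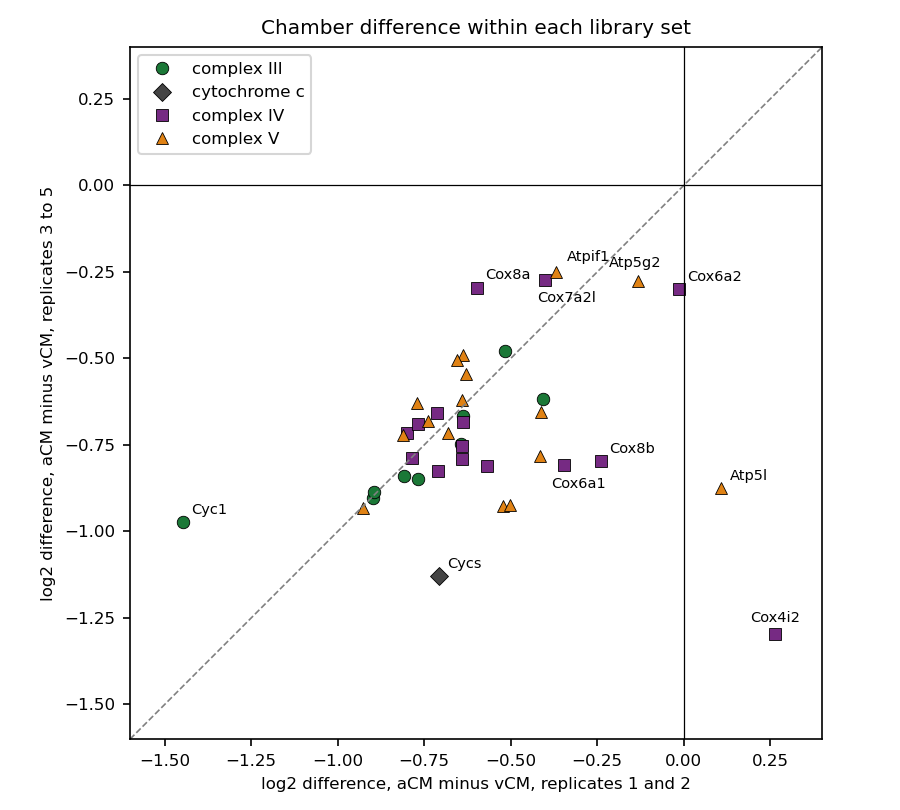
Log2 difference (aCM minus vCM) in replicates 1 and 2 on the x axis and in replicates 3 to 5 on the y axis for the 41 genes, marked by complex; the dashed line marks equal differences. All genes lie below 0 on the y axis, and Cox4i2 and Atp5l lie above 0 on the x axis.

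Some of these genes have processed pseudogenes or neighbours that could share reads, and whether the counting used strand is not stated in the labels. Of the 41, 10 overlap exons of another annotated gene and 23 share at least 1 exact 50-base window of transcript with another gene. The share exceeded 10% of windows in 14 genes, 9 of them lower in aCM. It was 68.5% in Atp5l, 47.9% in Atp5h, 43.2% in Uqcrb, 35.5% in Atp5o, 28.2% in Cycs, 27.9% in Cox7c, 25.9% in Cox5b and 23.2% in Atp5pb, whose levels are therefore uncertain in part. Atp5o has 2 GENCODE entries under its symbol, and the other entry is among the 2 genes that share its windows. Cyc1, Uqcrc1, Uqcrc2, Uqcrfs1, Cox4i1, Cox6b1, Cox8b and Atp5g3 shared none, and Cox6a1, Atp5g1 and Atp5g2 shared 12.3%, 10.6% and 14.8%.

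Other genes of oxidative phosphorylation were also lower in aCM: of 89 listed genes 78 were tested, and 36 were lower and none higher. Their median log2 difference was -0.60, and 6.56% of all tested genes were called lower. With the replicate block 68 of the 78 were lower and none higher, against 16.0% and 16.3% of all tested genes. Complex I, which feeds electrons from NADH, had 19 of 35 tested genes lower (34 with the block, median -0.65), led by Ndufs6 (-1.30), Ndufb8 (-0.95) and Ndufb10 (-0.92). Complex II, which feeds them from succinate, had 3 of 4 lower (4 with the block, median -1.004), Sdha (-1.14), Sdhd (-1.04) and Sdhb (-0.97). Assembly factors of complex III had 3 of 6 lower (5 with the block, median -0.63), Uqcc2 (-0.82), Ttc19 (-0.64) and Uqcc1 (-0.62). For complex IV assembly 4 of 20 tested genes were lower (13 with the block, median -0.42), led by the copper chaperone Cox17 (-1.04), the mitochondrial mRNA-binding protein Lrpprc (-1.02) and the haem farnesyltransferase Cox10 (-0.74). For complex V assembly 1 of 3 was lower (2 with the block, median -0.35), Tmem70 (-0.53). Among the carriers that exchange ATP, ADP and phosphate across the membrane, 1 of 3 was lower (3 with the block, median -0.67), Slc25a5 (-0.67).

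The other listed subunits and partners of complexes IV and V had 5 of 7 tested genes lower (7 with the block), with a median of -0.83. They were led by Ndufa4l2 (-1.89, with 9.14 normalized reads in aCM and 36.9 in vCM), a relative of a complex IV subunit, by Higd1a (-1.10), a small protein that binds complex IV, and by Atp5md (-0.83), a small synthase subunit. Cox7b2 and Cox8c, known from testis, averaged 0.533 and 0 normalized reads in aCM and 1.115 and 0.692 in vCM and were not tested.

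Markers of other cells also differed between the chambers' libraries. All 6 epicardial markers were higher in aCM (median log2 difference 2.21), with summed levels of 2561 to 6066 normalized reads in aCM and 332 to 1703 in vCM. Smooth muscle markers had 3 of 6 lower (median -1.32), with sums of 1650 to 6517 in aCM and 8856 to 15675 in vCM. Of that list Cnn1 went the other way, with 698 normalized reads in aCM and 174 in vCM (1.76, limma adjusted p = 0.0696), and was higher with the block (0.000100). Fibroblast markers had 2 of 7 lower (3 with the block, which added Tcf21), with sums of 13845 to 32936 in aCM and 5775 to 49629 in vCM. Their median log2 difference was 0.59 in replicates 1 and 2, with 3 of 7 negative and none lower, and -1.08 in replicates 3 to 5, with 7 of 7 negative and 6 lower. Endothelial markers had 2 of 7 higher (3 with the block, which added Vwf), with sums of 715 to 3178 in aCM and 214 to 1367 in vCM. Pecam1 (-0.48) and Cdh5 (-0.87) had negative log2 differences that did not pass with or without the block. The median of the endothelial list was 1.70 in replicates 1 and 2, with 0 of 7 negative. In replicates 3 to 5 it was 0.07, with 3 of 7 negative and 2 lower. Of 6 macrophage markers 2 were tested and 1 was higher, with sums of 75.9 to 138 in aCM and 20.4 to 118 in vCM. Of 6 adipocyte markers 1, Fabp4, was tested (-1.37); it did not pass without the block (adjusted p = 0.0979) and was lower with it (0.0317), with sums of the list of 33.5 to 191 in aCM and 132 to 360 in vCM. The part of these cells, or of pericytes, in the levels of the 41 genes was not tested. Nor was it tested for the other genes of the pathway, Ndufa4l2 among them.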

How the data were processed

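Total RNA was extracted with Trizol, cleaned on Zymo columns and made into ScriptSeq v2 libraries, per the labels' protocols. Per the submitters' processing notes, Trimmomatic, HISAT2 and featureCounts were used on GRCm38 (mm10); tool versions, the annotation and the strand setting were not given in the sources used here. Per the file headers, the authors deposited 1 signal value per gene symbol and library, its read count over the library's DESeq2 size factor. Dividing by each library's smallest step gave whole reads within 0.01 for 100% of values, from which depth was read. A value of 0 allows up to 3 reads, or 1.70 to 10.4 normalized reads by library; this covers counting error only.

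The 41 genes and all gene lists were chosen with earlier results of these data known. The 12422 genes averaging at least 10 normalized reads were tested with limma 3.58.1 (R 4.3.3; trend, robust) on log2(normalized reads + 1), Benjamini-Hochberg at 0.05; log2 differences are aCM minus vCM ± SE and are understated for genes with few reads. Recovered reads were also tested with edgeR 4.0.16 and DESeq2 1.42.0. Paralog ratios and c-ring shares were tested by exact two-sided permutation. Values in every library are printed for paired complex IV genes, Cox7a2l, Cycs, c-ring genes and the largest and smallest difference of each complex; Uqcrq, Atp5a1, Atp5b, Atp5l and Atpif1, and the marker and untested genes named, were added after their values were seen. From each other list, up to 3 called genes with the largest difference are named.

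Same-numbered aCM and vCM libraries deviated together (correlations 0.582, 0.637, 0.623, 0.556 and 0.631), and the labels give no reason for it. The main fit and the main permutation tests did not pair these libraries. They were paired only in the replicate block, the sign-flip tests and the counts over same-numbered pairs. Whether the correlations reflect more than the library sets, which both chambers share, was not tested. Replicates of a chamber differed beyond sampling noise, by unequal amounts, and were counted separately. Between libraries of a chamber, chi-square per gene was 2.21 to 11.8 within replicates 3 to 5. Across the library sets it was 140 to 238. Replicates 3 to 5 were thus far more alike than the 5 libraries of a chamber, and p-values within them rest on that small spread. Positions and lengths are from GENCODE M21 (GRCm38) and promoters from RefSeq (GRCm38.p6). The scripts were tested on simulated data, in which DESeq2, used only as an alternative, called more unchanged genes than its threshold allows.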

Additional observations from a re-analysis of the deposited data

Results flagged for a closer look

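Of 96 groups of 5 libraries examined for a library far from its group, 3 held one. The limit used marks about 1 in 20 groups when all 5 values come from 1 population. These groups mix the 2 library sets and share libraries, so that rate need not apply here. Atp5b stood at 19884 normalized reads in aCM replicate 2, against 15898 to 16684 in the other aCM libraries, and that library was still below all vCM libraries. Atp5f1, measured as Atp5pb, stood at 2622 normalized reads in aCM replicate 1, against 3399 to 3488 in the other aCM libraries. Atp5j2 stood at 1164 normalized reads in vCM replicate 4, against 979 to 1028 in the other vCM libraries.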

How the results depend on the processing

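No gene of the 41 changed sign past a threshold under any alternative run, and all 41 differences were negative in each fit over both library sets. Numbers of genes lower and higher in aCM over all tested genes were 815 and 1009; with the replicate block they were 1991 and 2026, with library set as a term 1966 and 1989, in replicates 3 to 5 alone 3307 and 3254, and in replicates 1 and 2 alone 254 and 384. Equal totals left 538 genes lower. For the 41 genes, 22 were lower; the block gave 38, library set as a term 37, replicates 3 to 5 alone 41, replicates 1 and 2 alone 10 and equal totals 14. For the 78 other genes of the pathway, 36 were lower, against 68, 64, 70, 12 and 23 in the same order. Calls that the replicate block changed are named or counted beside each result. For the paralog ratios and c-ring shares the block was an exact sign-flip test over 5 pairs. Its smallest possible p is 0.0625, so no ratio or share could pass, and the test cannot show whether a call holds. The Cox6a2 to Cox6a1 ratio and the Atp5g2 and Atp5g3 shares each had this exact sign-flip p of 0.0625. Other settings kept the count of the 41 between 19 and 27: 19 with TMM scaling or no filter, 21 with edgeR, 22 with a pseudocount of 0.5 or a minimum mean of 50, 23 with a pseudocount of 5 and 27 with DESeq2, which added Uqcrh, Cycs, Cox5a, Cox6c and Cox7a2. Over all tested genes, 704 were lower with TMM scaling, 689 with no filter and 915 with edgeR. There were 812 and 818 with pseudocounts of 0.5 and 5, 670 with a minimum mean of 50 and 1218 with DESeq2. Leaving out each library in turn gave 17 to 22, and 17 of the 22 genes passed in all 10 such fits. Over all tested genes these fits called 590 to 883 lower. The log2 difference of the Cox4i2 to Cox4i1 ratio was -0.51 in replicates 3 to 5 and 1.05 in replicates 1 and 2. The Atp5g3 share difference of -5.53 points passed with labels permuted within library sets (adjusted exact p = 0.0250), an alternative added after seeing the data, and ranged from -6.46 to -4.66 when each library was left out. The causes were not tested. Depth limits Cox4i2, which had 2 to 43 reads per library.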
